A study of Mus musculus with 6 samples.

Results

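The stereocilia of inner ear hair cells are stiff protrusions built on a core of parallel actin filaments, and 10 genes of this core and of its tips, membrane coat and links were followed here. The genes are Espn, Espnl, Fscn2, Pls1, Xirp2, Eps8, Myo15, Grxcr1, Ptprq and Strc. They were listed by name as genes of the hair bundle, with earlier results of these data known, and all 10 were found by symbol among the 39179 genes of the count files. The RNA came from newborn wild-type mice of the C57Bl/6J strain at postnatal day 0, with males and females pooled, and no group carried a transgene or a treatment. The cochlea group held 3 RNA-seq libraries of cochlear sensory epithelium, and the vestibule group held 3 libraries of vestibular sensory epithelium. Each tissue was pooled from 20 organs of 10 mice. The comparison asks how hair bundle transcripts differ between the hearing and the balance organ at birth.

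A stereocilium takes its shape from crosslinkers such as espin, fascin and plastin, which hold actin filaments in a tight bundle, and from a tip complex in which myosin XVa delivers the actin regulator Eps8 to the growing end. The finished bundle is a staircase of rows, joined by links and coated by membrane proteins along the shafts. Vestibular hair cells are known to carry taller bundles than cochlear hair cells.

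The libraries held between 24464483 and 33664793 counts on genes, so 1 CPM, a count per gene scaled to the counts on all genes of its library, stood for 24.5 to 33.7 counts. No source shows that the 3 libraries of a tissue came from separate dissections, so the p-values measure only the spread between these libraries, which may be technical. The hair cell label was checked on 10 markers that hold none of the 10 genes (Pou4f3, Gfi1, Barhl1, Lhx3, Atoh1, Myo7a, Otof, Cdh23, Tmc1 and Lhfpl5), all of which passed the filter on low counts, with a summed level of 244 to 380 CPM in the cochlea and 679 to 960 CPM in the vestibule. Of 6 supporting cell markers, 5 were higher in the cochlea, as were 11.6% of all genes tested, and the 6 summed to 576 to 701 CPM there against 362 to 392 CPM in the vestibule. The call of Sox2 among them was lost without cochlea replicate 1, cochlea replicate 2, vestibule replicate 1 or vestibule replicate 2, at edgeR adjusted p of 0.0626 to 0.098. Skeletal muscle markers stood at 311 CPM in cochlea replicate 3 and at 8.34 to 33.8 CPM in the other 5 libraries. Mesenchyme markers summed to 1850 to 2083 CPM in the cochlea and 2708 to 3225 CPM in the vestibule, and Schwann cell markers to 141 to 306 against 487 to 844 CPM. Neuron markers summed to 157 to 500 CPM in the cochlea and 105 to 315 CPM in the vestibule. The part of these other cells in the results below was not tested.

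Of the 10 genes, 6 were higher in the vestibule (Espn, Fscn2, Xirp2, Eps8, Myo15 and Ptprq), 1 was higher in the cochlea (Pls1), and 3 did not pass the test (Espnl, Grxcr1 and Strc), by edgeR's quasi-likelihood test at a Benjamini-Hochberg FDR of 0.05. Among all 14723 genes tested, 15.8% were called higher in the vestibule and 11.6% higher in the cochlea. For 8 of the 10 genes the CPM values of the 3 libraries of one tissue lay wholly above those of the other, which held for 41.8% of all genes tested. The median log2 fold change, vestibule minus cochlea, was 0.98 over the 10 genes and 0.0048 over all genes tested. In pooled tissue, fewer cells of a type and less RNA per cell cannot be told apart. Fold changes are given after TMM scaling, which corrects for library composition, whereas CPM values are scaled by the counts on genes alone, and without TMM the median of all genes was 0.13, with 2754 genes called higher in the vestibule and 1251 in the cochlea against 2325 and 1711 with it.

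**Figure D1:**
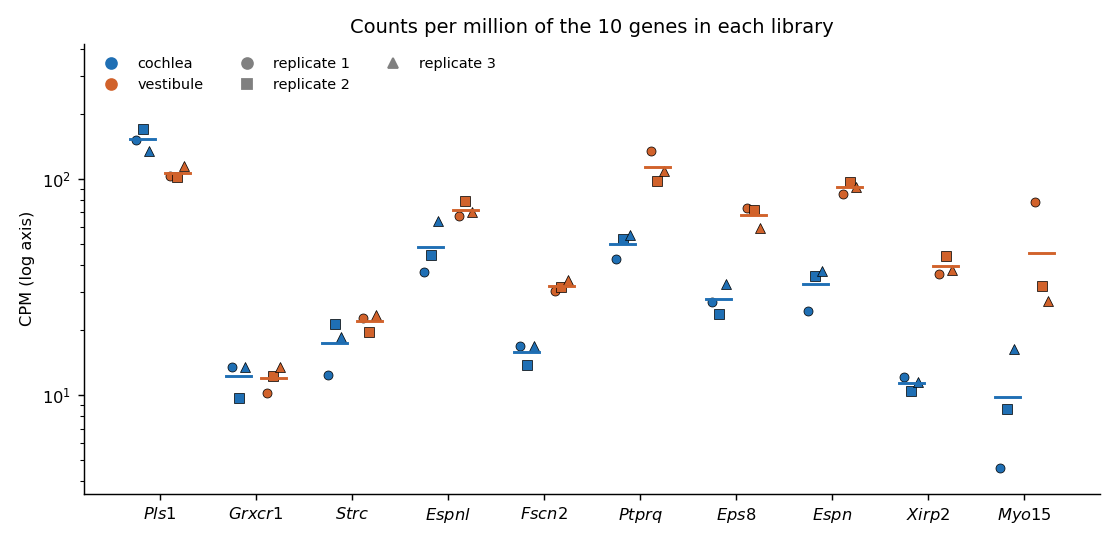
CPM values of the 10 genes in the 3 cochlear and 3 vestibular libraries on a log axis, ordered by fold change, with short lines at the tissue means. Pls1 lay higher in all 3 cochlear libraries, Grxcr1 and Strc overlapped between the tissues, and the other 7 genes lay higher in all 3 vestibular libraries.

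The sequences before the start sites of 4 of the genes are shown because they had the largest differences between the tissues in either direction, with Espn, Xirp2 and Myo15 higher in the vestibule and Pls1 higher in the cochlea. They are the RefSeq upstream stretches of the mouse build GRCm38.p6, printed 5′ to 3′ on the strand of the gene. They lie at chr4:152152390-152152639 on the minus strand (the first start site of Espn), chr2:67445752-67446001 on the plus strand (Xirp2), chr11:60469089-60469338 on the plus strand (Myo15) and chr9:95845312-95845529 on the minus strand (Pls1). Capitals mark the E-box CANNTG, the core read by basic helix-loop-helix factors such as Atoh1, and in Xirp2 also 1 MEF2-type site, which is the second block of capitals.
Espn: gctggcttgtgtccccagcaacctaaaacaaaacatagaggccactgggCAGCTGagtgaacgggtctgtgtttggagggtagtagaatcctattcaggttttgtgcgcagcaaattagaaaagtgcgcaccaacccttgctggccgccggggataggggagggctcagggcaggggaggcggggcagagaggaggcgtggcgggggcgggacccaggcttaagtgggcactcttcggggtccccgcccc
Xirp2: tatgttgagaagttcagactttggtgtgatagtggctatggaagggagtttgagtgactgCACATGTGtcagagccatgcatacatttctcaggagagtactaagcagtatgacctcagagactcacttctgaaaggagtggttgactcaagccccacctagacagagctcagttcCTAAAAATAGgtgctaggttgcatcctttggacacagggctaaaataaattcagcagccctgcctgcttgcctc
Myo15: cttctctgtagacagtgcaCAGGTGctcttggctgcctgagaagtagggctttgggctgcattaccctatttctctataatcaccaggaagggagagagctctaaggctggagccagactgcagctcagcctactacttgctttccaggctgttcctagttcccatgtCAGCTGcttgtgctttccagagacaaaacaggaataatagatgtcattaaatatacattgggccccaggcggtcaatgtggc
Pls1: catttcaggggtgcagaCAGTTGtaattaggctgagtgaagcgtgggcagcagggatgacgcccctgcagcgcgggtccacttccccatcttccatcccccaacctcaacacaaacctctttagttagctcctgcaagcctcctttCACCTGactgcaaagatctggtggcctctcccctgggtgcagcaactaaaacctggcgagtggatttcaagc

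RefSeq windows of 250 bases before and 50 bases after the start were found for 8 of the 10 genes, not for Eps8 and Ptprq, and motifs were searched on both strands. The E-box CANNTG occurred in 7 of these 8 genes and in 72.3% of all 32851 mouse windows. Its form CAGCTG occurred in 2 of the 8 genes, Espn and Myo15, against 16.3% of all windows. Espn had 3 windows, so that the 8 genes had 10, of which 8 held CANNTG and 3 held CAGCTG. The form CAGATG occurred in 1 gene, Espnl, against 17.2%. The POU-type core ATTAAT occurred in Grxcr1 alone, against 4.7% of all windows. TATAAA occurred in Fscn2 alone, against 13.6%. AAATCA, a longer form of the GFI1 core, and GTTGCC, an RFX-type core, occurred in none of the 8 genes, against 14.0% and 12.5% of all windows. The forms CAGCTG and CAGATG are contained in CANNTG and were counted under both. The MEF2-type site was searched after the window of Xirp2 had been read, and 0.557% of all windows held it. These matches are descriptions of letters and were not tested for binding.

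Espn encodes espin, a crosslinker that bundles the actin filaments of the stereocilia core, and its transcripts were 2.58-fold higher in the vestibule. The gene lies at chr4:152120331-152152371 on the minus strand of GRCm38, as annotated by GENCODE vM21, with 12 exons in its longest coding transcript. It stood at 24.5, 35.5 and 37.5 CPM in the cochlear libraries and at 85.1, 97.2 and 91.7 CPM in the vestibular libraries. All 3 vestibular values were above all 3 cochlear values, and the lowest cochlear value was that of replicate 1. The log2 fold change was 1.37 (SE 0.18, 95% interval 0.95 to 1.79), with an adjusted p of 0.000736 by edgeR's quasi-likelihood test.

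Espnl, which encodes the espin-like protein, a relative of espin, did not pass the test. It is found at chr1:91322075-91348306 on the plus strand. It stood at 36.9, 44.2 and 64.1 CPM in the cochlea and at 67.2, 78.9 and 70.0 CPM in the vestibule. The groups did not overlap, but cochlea replicate 3 came within a few CPM of the lowest vestibular library. The log2 fold change was 0.46 (SE 0.20), with an adjusted p of 0.125 by edgeR's quasi-likelihood test and an interval of 0.005 to 0.909 that is not corrected for the number of genes. Without cochlea replicate 3 the value was 0.69 and the adjusted p was 0.0146 in edgeR (0.0146 to 0.325 over the 14 alternatives other than the hair cell scalings and the length correction), and under both hair cell scalings described below the sign turned. The ratio of Espn to Espnl in RPKM, the same scaling further divided by the exon length in kilobases, was 0.533 to 0.732 in the cochlea and 1.12 to 1.19 in the vestibule. Which of the pair was higher in the vestibule depended on the annotation, since with the longer merged exons of Espn in GENCODE vM21, an alternative chosen after seeing the data, the ratio was 0.385 to 0.529 in the cochlea and 0.81 to 0.861 in the vestibule. By either length the 3 vestibular ratios lay above the 3 cochlear ratios.

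Fscn2 encodes fascin 2, another actin crosslinker of stereocilia, and was 1.87-fold higher in the vestibule. It spans chr11:120361534-120368168 on the plus strand and has 5 exons. Its cochlear libraries held 16.8, 13.8 and 16.8 CPM and its vestibular libraries 30.3, 31.8 and 33.9 CPM. The groups were clearly apart, with little spread within either tissue. On the log2 scale the fold change was 0.90 (SE 0.14), with an adjusted p of 0.00168 by edgeR's quasi-likelihood test. Fscn1, its widely expressed relative, had a log2 fold change of -0.09 (edgeR adjusted p = 0.651) that turned to 0.03 without TMM. The RPKM ratio of Fscn2 to Fscn1 was 0.0841 to 0.0975 in the cochlea and 0.171 to 0.193 in the vestibule.

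Pls1, which encodes plastin 1, an abundant crosslinker of stereocilia and of other actin protrusions, was the only one of the 10 genes called higher in the cochlea. It lies at chr9:95752642-95845311 on the minus strand. It stood at 151, 171 and 135 CPM in the cochlea and at 103, 102 and 114 CPM in the vestibule. Every cochlear library was above every vestibular library. The log2 fold change was -0.64 (SE 0.15, 95% interval -0.98 to -0.29), with an adjusted p of 0.0142 by edgeR's quasi-likelihood test. The call was lost in 3 of the 6 fits that left out 1 library, where the edgeR adjusted p was 0.0538 without cochlea replicate 2, 0.0562 without vestibule replicate 1 and 0.0867 without vestibule replicate 2, with values of -0.52, -0.57 and -0.58. It was kept in the other 3, at edgeR adjusted p of 0.00707 to 0.035. In a fit with the replicate number as a block the call was lost as well, at -0.63 (edgeR adjusted p = 0.0753). Over the same 14 alternatives the adjusted p of Pls1 ran from 0.00121 to 0.0867.

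The plastin family differed in direction between its members. Lcp1 encodes plastin 2, the plastin of leukocytes, and stood at 13.3 to 18.03 CPM in the cochlea and 35.8 to 44.8 CPM in the vestibule. Its log2 fold change was 1.28 (edgeR adjusted p = 0.000285), and 0.56 with the call lost when scaled to the 10 hair cell markers (edgeR adjusted p = 0.0535), but 0.59 with the call kept when scaled to the 5 hair cell transcription factors (edgeR adjusted p = 0.0234). Pls3, the broadly expressed plastin 3, had a log2 fold change of 0.29 that did not pass the test (edgeR adjusted p = 0.1) and that turned negative under both hair cell scalings. In RPKM, Pls1 stood at 1.54 to 1.98 times Pls3 in the cochlea and at 0.846 to 0.951 times Pls3 in the vestibule, so the order of both plastins was reversed between the tissues in every library.

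Xirp2 encodes a Xin repeat protein that binds actin in striated muscle and in hair cells, and was 3.20-fold higher in the vestibule. It is annotated at chr2:67446002-67526614 on the plus strand. It stood at 12.1, 10.4 and 11.5 CPM in the cochlea and at 36.4, 43.7 and 37.8 CPM in the vestibule. The lowest vestibular library was at about 3 times the highest cochlear library. This gave a log2 fold change of 1.68 (SE 0.14, 95% interval 1.36 to 1.999), with an adjusted p of 5.61e-05 by edgeR's quasi-likelihood test. Cochlea replicate 3, which held most of the skeletal muscle signal, had a Xirp2 level between those of the other 2 cochlear libraries. Acta1, the actin of skeletal muscle, stood at 1.84, 4.62 and 147 CPM in the same 3 libraries. Xirp1, the relative of Xirp2 in muscle, was below the filter, at 0 to 1.78 CPM. An antisense gene, Gm13601, overlaps 1.4% of the exon bases of Xirp2, and the strand setting of the counting is not given in the sources used here.

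Eps8 encodes an actin-capping and bundling protein at stereocilia tips that is needed for elongation, and was 2.27-fold higher in the vestibule. It lies at chr6:137477245-137654876 on the minus strand. Its cochlear libraries held 26.8, 23.6 and 32.6 CPM and its vestibular libraries 73.3, 71.7 and 59.5 CPM. The groups did not overlap. On the log2 scale Eps8 differed by 1.18 (SE 0.14), with an adjusted p of 0.000377 by edgeR's quasi-likelihood test. Its relative Eps8l2, also a stereocilia tip protein, had a log2 fold change of 0.56 that did not pass the test (edgeR adjusted p = 0.0805) and turned negative under both hair cell scalings. Eps8l1 had a value of 0.35 with an edgeR adjusted p of 0.430 and turned negative likewise, and Eps8l3 was below the filter.

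Myo15 encodes myosin XVa, the motor that carries Eps8 and whirlin to the tips, and had both the largest fold change and the widest spread of the 10 genes. It lies at chr11:60469339-60528369 on the plus strand, and its longest coding transcript has 66 exons. It stood at 4.58, 8.61 and 16.3 CPM in the cochlea and at 77.7, 31.9 and 27.2 CPM in the vestibule. The groups did not overlap, but cochlea replicate 3 was 3.55 times cochlea replicate 1, and vestibule replicate 1 was 2.85 times vestibule replicate 3. This gave a log2 fold change of 2.07 (SE 0.49, 95% interval 0.95 to 3.20), with an adjusted p of 0.0142 by edgeR's quasi-likelihood test. With 1 library left out the value ran from 1.52, without vestibule replicate 1, to 2.61, without cochlea replicate 3, and without cochlea replicate 2 it was 2.01 with an edgeR adjusted p of 0.0726, the highest of the same 14 alternatives, which began at 0.000438. The call was also lost in a fit with the replicate number as a block, at 2.06 (edgeR adjusted p = 0.0652). The biological coefficient of variation fitted for Myo15 was 0.407, against 0.143 to 0.204 for the other 9 genes.

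The libraries also deviated from their tissue means in a way that moved with gene length. Genes over 10 kb of exon length had a median log2 deviation of 0.29 in vestibule replicate 1 and 0.27 in cochlea replicate 3, but of -0.30 in vestibule replicate 3 and -0.15 in cochlea replicate 1. Genes of up to 2 kb deviated the other way in those 4 libraries, by -0.12, -0.10, 0.10 and 0.10. Myo15 has an exon length of 12.7 kb by the RPKM values, and its deviations of 0.93, 0.92, -0.58 and -0.91 in the same libraries had the same signs and were larger. Of 258 genes within 10% of its length, 96.1% lay below it in vestibule replicate 1, 96.9% in cochlea replicate 3, 19.8% in vestibule replicate 3 and 2.7% in cochlea replicate 1. In the remaining libraries Myo15 was at -0.35 in vestibule replicate 2, where the median of these genes was 0.04, and at -0.0040 in cochlea replicate 2, where it was -0.10. Xirp2, at 12.0 kb, deviated by -0.11 in vestibule replicate 1 and 0.02 in cochlea replicate 3. The median log2 CPM difference, vestibule minus cochlea, also rose with length. It was 0.054 for genes of up to 2 kb and 0.235 for genes over 10 kb. Myo15 and Xirp2 are the longest of the 10 genes by this length. A correction for length, chosen after seeing the data, left 6 of the genes higher in the vestibule and 1 in the cochlea, with log2 fold changes of 1.98 for Myo15, 1.58 for Xirp2 and -0.64 for Pls1.

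**Figure D2:**
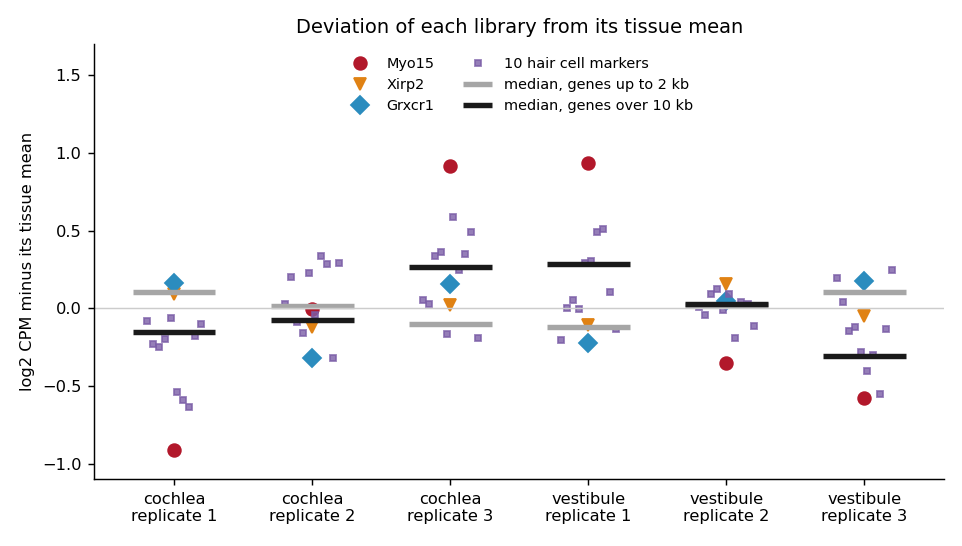
Deviation of log2 CPM from the mean of its tissue in each library, for Myo15, Xirp2 and Grxcr1, for the 10 hair cell markers (small squares), and as medians (bars) of genes up to 2 kb and over 10 kb. Myo15 ranged from -0.91 to 0.93, beyond the medians of long genes, which ranged from -0.30 to 0.29.

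Grxcr1 encodes a glutaredoxin-like protein involved in setting the width of stereocilia, and no difference between the tissues was detected. It is found at chr5:68031835-68166398 on the plus strand and is the shortest of the 10 genes, at 1.07 kb of exon length. Its cochlear libraries held 13.5, 9.69 and 13.5 CPM and its vestibular libraries 10.2, 12.3 and 13.4 CPM. The groups overlapped. The log2 fold change was -0.14 (edgeR adjusted p = 0.646), and the 95% interval of -0.59 to 0.31 covers vestibule to cochlea ratios from 0.666 to 1.24, while without vestibule replicate 1 the value was 0.011. Its relative Grxcr2 stood at 18.1 to 20.4 CPM in the cochlea and 39.5 to 55.6 CPM in the vestibule, with a log2 fold change of 1.12 (edgeR adjusted p = 0.00170). Under both hair cell scalings Grxcr2 was at 0.44 and the call was lost (edgeR adjusted p of 0.126 and 0.0721). The RPKM ratio of Grxcr1 to Grxcr2 was 0.560 to 0.699 in the cochlea and 0.253 to 0.301 in the vestibule, and 0.999 to 1.25 against 0.45 to 0.536 with the merged exon lengths of GENCODE vM21.

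Ptprq encodes a receptor-type phosphatase of the stereocilia membrane, needed for the connectors between shafts, and was 2.08-fold higher in the vestibule. It spans chr10:107517049-107720051 on the minus strand. It stood at 42.8, 52.4 and 55.1 CPM in the cochlea and at 134, 97.4 and 109 CPM in the vestibule. All vestibular libraries were above all cochlear libraries. On the log2 scale Ptprq differed by 1.06 (SE 0.16), with an adjusted p of 0.00139 by edgeR's quasi-likelihood test. Of its relatives, Ptprb, a phosphatase of blood vessel lining, had a log2 fold change of 2.14 (edgeR adjusted p = 0.00109), and Ptprj had 0.26 and did not pass the test (edgeR adjusted p = 0.182). Under both hair cell scalings Ptprj turned to -0.41, past the test with the transcription factors (edgeR adjusted p = 0.032) but not with the 10 markers (0.106).

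Strc encodes stereocilin, an extracellular protein of the links at bundle tips and of the attachment to the tectorial membrane in outer hair cells. It lies at chr2:121363728-121387168 on the minus strand. It stood at 12.4, 21.3 and 18.6 CPM in the cochlea and at 22.7, 19.6 and 23.4 CPM in the vestibule. The groups overlapped, and the lowest value was that of cochlea replicate 1. The log2 fold change was 0.21 (edgeR adjusted p = 0.527, 95% interval -0.30 to 0.71), and it was -0.0010 without cochlea replicate 1 and negative under both hair cell scalings. Otoa, which encodes the related otoancorin, was at much higher RPKM levels, with a log2 fold change of -0.47 that did not pass the test (edgeR adjusted p = 0.0839). The RPKM ratio of Strc to Otoa was 0.0147 to 0.0183 in the cochlea and 0.0261 to 0.0289 in the vestibule, and 0.029 to 0.0361 against 0.0514 to 0.057 with the merged exon lengths.

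The order of levels among the 10 genes was read in RPKM. In the cochlea the order was Pls1 at 39.1 ± 4.62 (SD, n = 3), Grxcr1 at 11.4, Espnl at 8.91, Fscn2 at 7.51, Ptprq at 7.11, Espn at 5.45, Eps8 at 4.84, Strc at 2.80, Xirp2 at 0.948 and Myo15 at 0.772 RPKM. Only the steps from Pls1 to Grxcr1, from Eps8 to Strc and from Strc to Xirp2 were free of overlap between the libraries of neighbours. In the vestibule the order was Pls1 at 27.4 ± 1.74 (SD, n = 3), Ptprq at 16.1, Espn at 15.3, Fscn2 at 15.2, Espnl at 13.3, Eps8 at 11.9, Grxcr1 at 11.2, Myo15 at 3.58, Strc at 3.52 and Xirp2 at 3.29 RPKM. Here the libraries of neighbours were apart only between Pls1 and Ptprq and between Grxcr1 and Myo15. Plastin 1 was thus the leading transcript in both tissues, and it made up 44.1% ± 5.77 of the summed cochlear RPKM of the 10 genes, against 22.7% ± 1.36 of the vestibular sum (SD, n = 3). The cochlear libraries summed to 88.9 ± 3.98 RPKM over the 10 genes, against 121 ± 1.28 RPKM for the vestibular libraries. The orders depend on the annotation, most for Eps8 and Espn, whose RPKM rest on lengths of 5.72 and 5.97 kb, while GENCODE vM21 merges their exons to 12355 and 8272 bases. With the merged lengths Eps8 stood below Strc in the cochlea, at 2.24 against 2.79 RPKM, but their libraries overlapped. In the vestibule Eps8 stood at 5.52 RPKM. Espn was then at 3.93 RPKM in the cochlea and at 11.0 RPKM in the vestibule, after Espnl and Grxcr1. The vestibular libraries of Espn and Grxcr1 overlapped. Fscn2 and Ptprq then stood at 15.2 and 15.1 RPKM in the vestibule, in the second and the third place, with overlapping libraries. Pls1 led both tissues by either length.

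**Figure D3:**
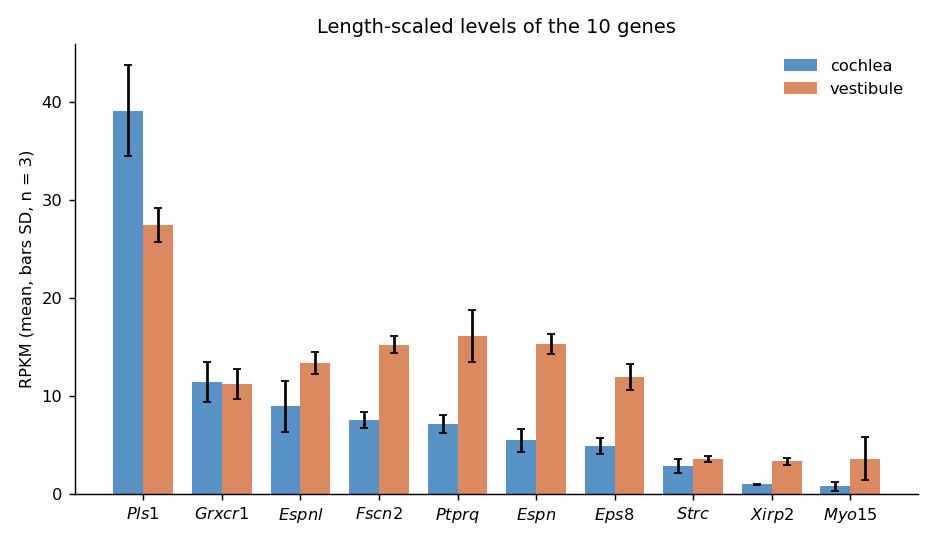
Mean RPKM of the 10 genes in the cochlea and the vestibule, with bars for the SD of 3 libraries, ordered by the cochlear mean. Pls1 led in both tissues at 39.1 and 27.4 RPKM, and Xirp2 and Myo15 were under 1 RPKM in the cochlea and at 3.29 and 3.58 RPKM in the vestibule.

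The geometric mean of the 10 hair cell markers was itself higher in the vestibule. It stood at 17.9, 23.0 and 25.2 CPM in the cochlear libraries and 41.5, 37.8 and 34.1 CPM in the vestibular libraries. This was a difference of 0.79 on the log2 scale. Of the 10 markers, 5 were called higher in the vestibule (Pou4f3, Gfi1, Lhx3, Otof and Tmc1), against 15.8% of all genes tested. The other 5 did not pass the edgeR test. The log2 fold changes of all 10 ran from -0.51 for Lhfpl5 to 2.19 for Gfi1. Otof was at 2.08, while Barhl1 and Atoh1 were also below 0, at -0.44 and -0.07. Gfi1 is also among the 5 transcription factors of the other scaling, so both lists share their largest value. The calls of Pou4f3 and Tmc1 were lost without cochlea replicate 1 or vestibule replicate 2, and that of Tmc1 also without cochlea replicate 2, at edgeR adjusted p of 0.0513 to 0.0659. The same fit was therefore repeated with each library scaled to the geometric mean of the 10 markers, which gives each gene relative to the marker list. Under this scaling the median of all genes tested was -0.68, and 7.21% of all genes were called higher in the vestibule and 57.5% higher in the cochlea.

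Relative to the hair cell markers, 3 of the 10 genes were higher in the vestibule, 2 were higher in the cochlea and 5 did not pass the test. Myo15 was 1.45 higher on the log2 scale (adjusted p = 0.000629, edgeR), Xirp2 was 0.99 higher (adjusted p = 0.00215, edgeR), and Espn was 0.73 higher (adjusted p = 0.00856, edgeR). Pls1 was 1.32 lower in the vestibule, at a log2 value of -1.32 (adjusted p = 7.34e-05, edgeR), and Grxcr1 was at -0.83 (adjusted p = 0.0156, edgeR). These ratios are in CPM and were compared between tissues, not between genes. Pls1 stood at 8.45, 7.43 and 5.35 times the marker mean in the cochlea and at 2.48, 2.70 and 3.35 times in the vestibule. Grxcr1 stood at 0.757, 0.423 and 0.536 times the marker mean in the cochlea and at 0.246, 0.326 and 0.394 times in the vestibule. Both genes were higher in every cochlear library by this ratio, whereas Grxcr1 had shown overlapping CPM values. The same held for Strc, at 0.695, 0.926 and 0.738 times the marker mean in the cochlear libraries and 0.547, 0.519 and 0.687 times in the vestibular libraries, but Strc did not pass the test. Eps8 (1.5, 1.03 and 1.3 against 1.76, 1.9 and 1.75) and Ptprq (2.4, 2.28 and 2.19 against 3.23, 2.58 and 3.2) were higher in every vestibular library. So were Espn, Xirp2 and Myo15. By this ratio 8 of the 10 genes did not overlap between the tissues, a share not counted over all genes. The marker scaling moved the median of all genes to -0.68, with 57.5% called higher in the cochlea. Myo15 had ratios of 0.258, 0.376 and 0.648 in the cochlear libraries, against 1.87, 0.844 and 0.8 in the vestibular libraries. Eps8, Ptprq and Fscn2, called in the vestibule by CPM, were at 0.50, 0.39 and 0.22 and no longer passed (edgeR adjusted p of 0.0616, 0.125 and 0.453). The loss for Eps8 depended on the marker list, since with the 5 transcription factors of the list in its place Eps8 was at 0.51 and passed (adjusted p = 0.0227, edgeR), so that 4 genes were higher in the vestibule. Espnl and Strc were at -0.18 and -0.43 (edgeR adjusted p of 0.482 and 0.13). The intervals of these 5 genes reached from -0.95 for Strc to 0.98 for Eps8, so an equal level per marker was not shown for any of them. The direction of Espn, Fscn2, Xirp2, Eps8, Myo15, Ptprq and Pls1 was the same under all 5 other scalings tried.

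**Figure D4:**
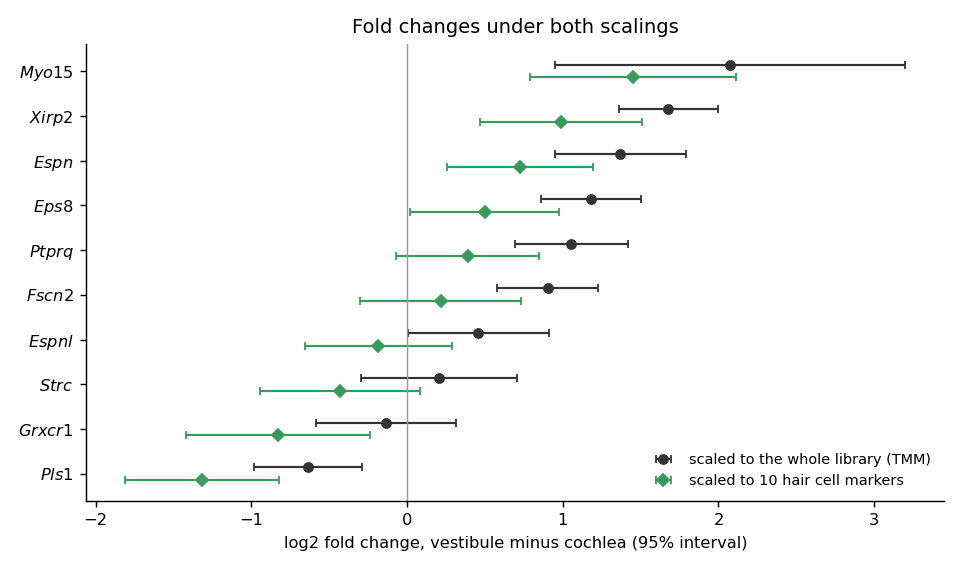
Log2 fold changes, vestibule minus cochlea, with 95% intervals, after TMM scaling (circles) and after scaling to the 10 hair cell markers (diamonds). The marker scaling moved the median of all genes to -0.68, and the values of Espn, Xirp2, Myo15, Eps8, Ptprq and Fscn2 lay above 0, those of the first 3 past the test at 0.73, 0.99 and 1.45.

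**Figure D5:**
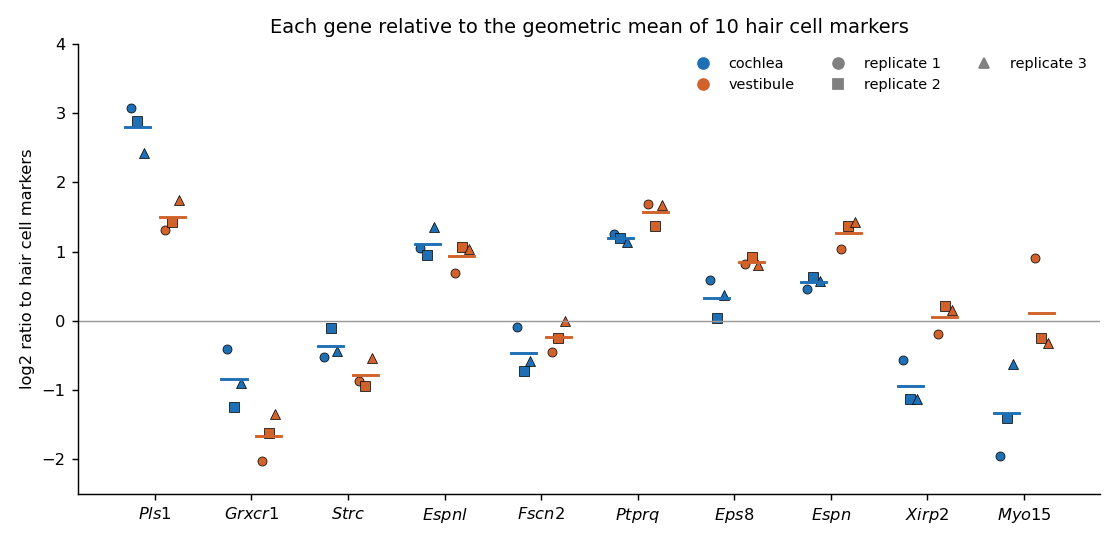
Log2 ratio of each gene to the geometric mean of the 10 hair cell markers in each library, with short lines at the tissue means. The ratio of Pls1 fell from a mean of 2.80 in the cochlea to 1.50 in the vestibule, and that of Myo15 averaged -1.33 over the cochlear libraries against 0.11 over the vestibular libraries.

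The other genes of the bundle were read from lists. Of 13 other actin core genes, 2 were higher in the vestibule, 1 in the cochlea and 10 did not pass the test, shares near the 15.8% and 11.6% of all genes tested. Scaled to the 10 hair cell markers, edgeR called none of the 13 higher in the vestibule (1 at an unadjusted p under 0.05) and 7 higher in the cochlea, where 7.21% and 57.5% of all genes were called. With the 5 hair cell transcription factors as the scaling the counts were 1 and 8, where 1112 and 9094 of all 14723 genes were called. Lcp1, described above, led those higher in the vestibule, and Twf2, an actin-capping twinfilin, was at 0.55 (edgeR adjusted p = 0.0163), a call lost without cochlea replicate 2 (0.0652) or vestibule replicate 2 (0.0797) and a sign that turned under both hair cell scalings. Gsn, which encodes the filament-severing gelsolin, was higher in the cochlea at 606 to 708 CPM against 212 to 220 CPM, with a log2 fold change of -1.68 (edgeR adjusted p = 6.98e-05). Actb and Actg1, the cytoplasmic actins that make up the core, had log2 fold changes of 0.21 and -0.24 and did not pass (edgeR adjusted p of 0.397 and 0.422).

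Of 9 tip complex and length control genes, 2 were higher in the vestibule, 2 in the cochlea and 5 did not pass. Of all genes tested, 15.8% were called higher in the vestibule and 11.6% in the cochlea. The counts of this list were 2 and 5 with the marker scaling, where 7.21% and 57.5% of all genes were called. They were 1 and 5 with the transcription factor scaling, where 1112 and 9094 of all 14723 genes were called. Without TMM they were 4 and 1, where 2754 and 1251 of all 14723 genes were called. Elmod1, a GTPase-activating protein of hair cells, stood at 10.6 to 13.8 CPM in the cochlea and 41.9 to 53.1 CPM in the vestibule, with a log2 fold change of 1.81 (edgeR adjusted p = 9.4e-05). Myo3a, a class III myosin of stereocilia tips, went the other way, at 5.80 to 8.21 CPM in the cochlea and 1.71 to 2.38 CPM in the vestibule, with a log2 fold change of -1.92 (edgeR adjusted p = 0.000388). Whrn, which encodes the Myo15 cargo whirlin, had a log2 fold change of 1.44 (edgeR adjusted p = 0.0234). Its libraries overlapped, at 7.15 to 14.9 CPM against 14.4 to 41.2 CPM, and its call was lost without cochlea replicate 1, cochlea replicate 2, vestibule replicate 1 or vestibule replicate 2, at edgeR adjusted p of 0.0689 to 0.106, and with the 5 hair cell transcription factors as the scaling, at 0.0518. The other gene called higher in the cochlea was Gnai3, an inhibitory G protein subunit, at a log2 fold change of -0.51 (edgeR adjusted p = 0.0434). Its call was lost without cochlea replicate 1, cochlea replicate 2, vestibule replicate 1 or vestibule replicate 2, at edgeR adjusted p of 0.117 to 0.18, so that only Myo3a was then left in the cochlea. Myo15 and Myo3a, both motors of the tip, thus differed between the tissues in opposite directions.

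Of 9 taper, rootlet and membrane linker genes, 4 were higher in the vestibule, 1 in the cochlea and 4 did not pass. Among all genes tested, 15.8% were called higher in the vestibule and 11.6% in the cochlea. With the marker scaling the counts of this list were 1 and 4, where 7.21% and 57.5% of all genes were called. With the transcription factor scaling they were 1 and 5, where 1112 and 9094 of all 14723 genes were called. Clic5, a linker of membrane and actin at the stereocilia base, stood at 92.7 to 105 CPM in the cochlea and 21.7 to 23.2 CPM in the vestibule, with a log2 fold change of -2.27 (edgeR adjusted p = 5.61e-06). Loxhd1, which encodes a membrane-associated stereocilia protein, was at 1.75 (edgeR adjusted p = 0.0455) with overlapping libraries at 2.98 to 12.7 CPM and 10.5 to 41.0 CPM. Its call was lost without cochlea replicate 1, cochlea replicate 2, vestibule replicate 1 or vestibule replicate 2, at edgeR adjusted p of 0.105 to 0.162. The third named gene of this list is Grxcr2, given above. Of the 12 family relatives of the 10 genes, 9 were tested, of which 3 were higher in the vestibule (Ptprb, Lcp1 and Grxcr2) and the other 6 did not pass the edgeR test. The shares of all genes tested were 15.8% in the vestibule and 11.6% in the cochlea. In the vestibule and the cochlea, respectively, 1 and 2 of the relatives were called with the marker scaling, against 7.21% and 57.5% of all genes. With the transcription factor scaling 2 and 3 relatives were called, against 1112 and 9094 of all 14723 genes. Without TMM, 5 relatives were higher in the vestibule, against 2754 of all 14723 genes.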

How the data were processed

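The authors aligned the reads to GRCm38 and deposited whole counts per Ensembl gene without normalization (TopHat2 2.1.0, SAMtools 0.1.18, HTSeq 0.5.4p5 and edgeR 3.4.2 in the submitters' processing notes). A matrix of log2 RPKM that the authors deposited for 14722 genes gave the exon lengths. Summary lines, 18.5% to 20.6% of the listed counts, were left out, and 37607 of 39179 gene IDs matched a symbol. The filter asked for 1 CPM in at least 3 libraries, and 14723 genes were fitted by glmQLFit and glmQLFTest (edgeR 4.0.16, R 4.3.3, TMM, Benjamini-Hochberg FDR 0.05, no block), a test also tried on simulated data. An exact permutation test of 3 against 3 libraries cannot go below p = 0.1 and was not used. Alternatives were other scalings and filters, DESeq2 1.42.0, limma-voom (limma 3.58.1), a replicate block and leaving out each library. The length correction, the merged exon lengths and the MEF2-type motif were added after seeing the data. All lists, like the 10 genes, were chosen with earlier results of these data known. Named were the 10 genes, their family relatives, up to 3 called genes of each other list by absolute log2 fold change, and the 5 genes most like the mean profile; Actb, Actg1, Acta1 and Gnai3 were named after their values were seen. Coordinates are from GENCODE vM21, which may differ from the annotation of the counts. With 3 libraries a tissue, single outlying libraries were not tested for. Log2 ratios to the markers used an offset of 0.5 counts.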

Additional observations from a re-analysis of the deposited data

How the results depend on the processing

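Of 150 log2 fold changes of the 10 genes under settings other than the hair cell scalings, 141 kept their direction and their side of the threshold, 6 lost the call, 1 gained a call and 2 turned. Both hair cell scalings move all genes down, and of their 20 values 9 kept direction and side, 5 lost the call, 2 gained one and 4 turned. Relative to the 10 hair cell markers, 3 genes were higher in the vestibule and 2 in the cochlea, and relative to the 5 hair cell transcription factors among them 4 and 2. Espnl was then at -0.18 and -0.20, and Strc at -0.43 and -0.44, under both scalings. With 1 library left out, the genes higher in the cochlea numbered 0 to 1 (0 without cochlea replicate 2, vestibule replicate 1 or vestibule replicate 2, where edgeR left 1 gene at an unadjusted p under 0.05). DESeq2 and limma-voom on all libraries each called 1. Over these fits Strc ranged from -0.0010 to 0.41 and Grxcr1 from -0.26 to 0.011. Same-numbered libraries had correlations of -0.18, -0.26 and -0.47 between their deviations from the tissue means. Those of unlike-numbered libraries ran from -0.27 to 0.41. The deviations also moved with gene length, so these values cannot show whether the replicate numbers pair the libraries. With a replicate block, 0 genes were called higher in the cochlea, Pls1 was at -0.63 with an edgeR adjusted p of 0.0753 and Myo15 at 2.06 with 0.0652, and 1609 and 1009 of all genes were called higher in the vestibule and in the cochlea, against 2325 and 1711 without it. Other counts over all genes that moved by over 1.5 times were 1062 and 8459 with the marker scaling, 1112 and 9094 with the transcription factor scaling, 1764 and 1035 without cochlea replicate 2, 1522 and 1227 without vestibule replicate 1, and 1342 and 925 without vestibule replicate 2. Without TMM, 2754 and 1251 genes were called. The cause of these changes was not tested.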

Other observations

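As a description, 701 genes had a Pearson correlation over 0.95 with the mean standardised log2 CPM of the 10 genes over the 6 libraries, and libraries of one tissue share that tissue's level in any gene that differs. The 5 most alike were Bmp15 (r = 0.9988), Odf3b (0.9969), Cfp (0.9968), Gpc4 (0.9960) and Srf (0.9959). Mean levels of Bmp15, Odf3b and Cfp ran from 0.236 to 2.23 CPM in the cochlea and 1.78 to 15.4 CPM in the vestibule. Gpc4, a cell surface glypican, stood at means of 70.3 and 135 CPM, and Srf, the serum response factor that regulates actin genes, at 38.0 and 55.1 CPM. None of these genes was tested against the 10 genes.

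Among 12966 genes with a mean of at least 3 CPM, 98.9% had a smaller fold range than Myo15 over the cochlear libraries and 98.1% over the vestibular libraries. The 10 hair cell markers had median log2 deviations of -0.22, 0.12 and 0.29 in the 3 cochlear libraries and 0.08, 0.02 and -0.14 in the 3 vestibular libraries. Below their tissue mean lay 10, 4 and 2 of them in the cochlear libraries and 3, 4 and 7 in the vestibular libraries.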
